A study of Mus musculus with 32 samples.

Results

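The genes described here are 40 genes of autophagy and the lysosome, chosen by name with earlier results of these data known. They are 6 genes grouped as autophagy receptors, 5 genes of the Atg8 family, 7 of the initiation kinase and lipid kinase complexes, 4 of membrane expansion, 6 of the conjugation enzymes, 2 transcription factors and 10 lysosomal proteins. The receptor group also holds *Pink1*, which is a kinase and not a receptor. All 40 of the 40 were found in the table of 54838 genes, and all 40 had enough counts to be tested at every age, so no member was lost to the filter on low counts. RNAseq was run on tibialis anterior (TA) muscle of mice at postnatal day (P)1, P14, P21 and P35, with 4 wild-type (WT) and 4 *Mtm1* knockout (KO) libraries per age, 32 in all. *Mtm1* encodes myotubularin, a phosphatase that acts on endosomal phosphoinositides, and its loss causes X-linked myotubular myopathy. The study asked how muscle of the KO mouse changes from birth to late disease. WT and KO mice were both on the C57BL6/J background, to which the KO line was moved from another strain, and the labels name no treatment. The KO allele is a germline deletion in exon 4, carried by every cell, so that the same loss applies to fibres and to all other cells of the muscle. The methods give n=4 mice per genotype at P14, P21 and P35, and the labels add the P1 libraries.

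In autophagy, a cup of membrane grows around cargo, closes into an autophagosome and fuses with the lysosome, where hydrolases digest the content. The kinases Ulk1 and Ulk2 start the process together with their scaffold Rb1cc1 (FIP200) and with Atg13, and a lipid kinase complex holding Becn1 and Atg14 then makes PI3P on the growing membrane. PI3P is a lipid that myotubularin dephosphorylates. Wipi proteins bind PI3P, Atg9a and Atg2a supply membrane lipid, and the Atg conjugation enzymes attach Atg8 proteins (LC3 and GABARAP) to the membrane, where receptors such as p62 (*Sqstm1*) dock with their cargo. Tfeb and Tfe3 are transcription factors that switch on lysosomal genes, many of which carry the sequence CACGTG near their start. Skeletal muscle depends on this route for the turnover of mitochondria and protein aggregates, and inherited loss of the lysosomal glucosidase Gaa or of Lamp2 causes muscle disease.

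Library totals ranged from 49321035 to 85631408 counts, and the member with the lowest count of any library still had 348 counts. *Mtm1* itself lay at 5.26 to 6.02 CPM (counts per 1000000, scaled by TMM over all 32 libraries) in WT and 2.32 to 3.91 CPM in KO at P1, and from P14 on at 18.9 to 24.9 CPM in WT against 2.64 to 4.51 CPM in KO, lower in every KO library than in any WT library of its age. Skeletal muscle fibre markers were abundant in all libraries (10 genes, summed to 20648 to 230835 CPM). Some libraries stood apart. The fourth KO library at P1 had the lowest muscle fibre sum of all 32 (20648 CPM), keratinocyte markers varied from 1544 to 5987 CPM among P1 libraries and were at most 6.97 CPM at later ages, and the fourth libraries of both genotypes at P14 lay above the other libraries of their group for many members, *Sqstm1* among them. The first WT library at P35 had the highest muscle fibre sum of its group (204933 CPM against 145703 to 175374 CPM). Its endothelial marker sum was the lowest of the group (339 CPM against 565 to 630 CPM). That library was also the highest of its group for several members, *Pink1*, *Ulk2* and *Npc1* among them, but not for all. In these whole-muscle samples, fewer cells of a type and less RNA per cell cannot be told apart.

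Levels of different members are given per length, as mean CPM per kb of exon. The length merges the exons of all annotated transcripts of a gene, so the order of members depends on the annotation and is approximate. In WT at P35, *Map1lc3a* (1181 exon bases) and *Map1lc3b* (7517) averaged 204 and 195 CPM but 173 and 25.9 CPM per kb. In WT muscle at P35, *Pink1*, the kinase that marks damaged mitochondria for removal, was highest at 292 ± 36 CPM per kb (SD, n=4). *Ctsd* (cathepsin D) followed at 266 ± 19.9, a difference smaller than the spread, ahead of *Lamp1* at 175 ± 13.7 and *Map1lc3a* at 173 ± 16.2, which also could not be told apart. *Sqstm1* came next at 129 ± 17.2 CPM per kb. At the low end were the enzymes and regulators, with *Atg7* at 1.25 ± 0.0546, *Tfe3* at 1.44 ± 0.061, *Uvrag* at 1.99 ± 0.103 and *Atg14* at 2.45 ± 0.183 CPM per kb. The order differed at P1, where *Ctsd* led at 108 ± 0.449 CPM per kb and *Pink1* stood lower at 39.9 ± 3.29. At both ages the 8 highest members belonged to the receptor group, the Atg8 family and the lysosomal genes, and the lowest was *Atg7*.

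Most members rose in WT muscle between P1 and P14, and later changes were smaller. From P1 to P14, 20 members were differentially expressed genes (DEGs, adjusted *P*-value under 0.01 and a change of at least 1.5-fold) with the higher level at P14, and 2 were lower, where 24.7% of all genes tested were higher and 30.4% lower. The median log2 fold change of the members was 0.59, against -0.08 over all genes. This step depends on scaling, and muscle fibre markers summed to 30228 to 40168 CPM in WT at P1 and 162758 to 214585 CPM at P14. Scaled by library totals the median of all genes fell to -0.85, 7 members were higher and 10 lower (9.17% and 57.5% of all genes), and 22 of the 40 members changed sign, so the directions given here are relative to TMM scaling.

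*Optn* (optineurin, a mitophagy receptor) rose most, from 8.52, 7.02, 6.62 and 6.49 CPM in the 4 WT libraries at P1 to 45.1, 44.1, 54.9 and 72.3 CPM at P14 (log2 fold change 2.91 ± 0.17, adjusted *P*=4.16e-07). *Pink1* went from 105, 118, 96.4 and 107 CPM to 418, 387, 496 and 595 CPM (2.14 ± 0.14, adjusted *P*=6.81e-07). *Bnip3*, a receptor on the mitochondrial outer membrane, went from 49.3, 48.8, 42.0 and 39.7 CPM to 133, 124, 168 and 291 CPM (1.98 ± 0.26, adjusted *P*=6.11e-05). These 3 genes all serve the removal of mitochondria, did not overlap between the ages and stayed higher when scaled by library totals (2.11, 1.36 and 1.18 on the log2 scale). *Tfeb*, *Ulk2*, *Atg9a* and *Rb1cc1* also rose (1.63, 1.57, 1.54 and 1.51 on the log2 scale).

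Only 2 members fell as DEGs. *Npc2*, a soluble cholesterol carrier of the lysosome, went from 107, 90.1, 83.1 and 98.7 CPM to 48.3, 47.6, 51.3 and 52.0 CPM (-0.94 ± 0.08, adjusted *P*=4.49e-06), and *Hexa*, the alpha subunit of beta-hexosaminidase, from 60.6, 41.9, 37.9 and 58.2 CPM to 30.3, 29.1, 32.9 and 30.8 CPM (-0.70 ± 0.14, adjusted *P*=0.00141). In both genes the P1 libraries were spread widely and all of them lay above the P14 libraries. Markers of macrophages, cells rich in lysosomes, summed to 211 to 253 CPM in WT at P1 and 136 to 143 CPM at P14. Fibroblast markers summed to 17584 to 24034 CPM at P1 and to between 5699.8 and 11907 CPM at P14 (5 of 6 called lower), and adipocyte markers to 43.7 to 136 CPM and then 0.94 to 10.2 CPM (3 of 3 lower). Keratinocyte markers went from 1874 to 5987 CPM at P1 to 2.95 to 3.72 CPM at P14 (5 of 5 lower). Red blood cell markers went from 491 to 1218 CPM to 288 to 513 CPM (3 of 4 lower), while 5 of 5 endothelial markers were called higher at P14. The part of these cells in the fall was not tested.

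Between P14 and P21 no member was a DEG (2.93% of all genes were higher and 2.6% lower). At an adjusted *P*-value under 0.05 with any fold, edgeR called 6 members higher and 3 lower, against 13% and 12.6% of all genes; blocked by replicate number, it called 0 and 1. DESeq2 also found 0 DEGs among the members. In edgeR 16 of the 40 members had an unadjusted *P*-value under 0.05, as did 6081 of the 15337 genes tested. From P21 to P35 the median member rose by 0.20 on the log2 scale against -0.01 over all genes, 18 members were called higher at 0.05 and 0 lower, against 9.99% and 7.67% of all genes. As DEGs, 2 members were higher (1.4% of all genes higher, 1.05% lower). *Gabarapl1*, an Atg8 gene, went from 26.3, 37.9, 32 and 34.0 CPM to 49.3, 46.1, 57.2 and 53.2 CPM (0.64 ± 0.12, adjusted *P*=0.00915). *Npc1*, the membrane transporter that exports cholesterol from the lysosome, went from 29.7, 31.0, 30.6 and 35.8 CPM to 63.8, 49.0, 40.8 and 52.6 CPM (0.68 ± 0.13, adjusted *P*=0.00931). All 5 Atg8 genes were among the 18. Both DEG calls were near the threshold and were lost with almost any library left out.

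**Figure D1:**
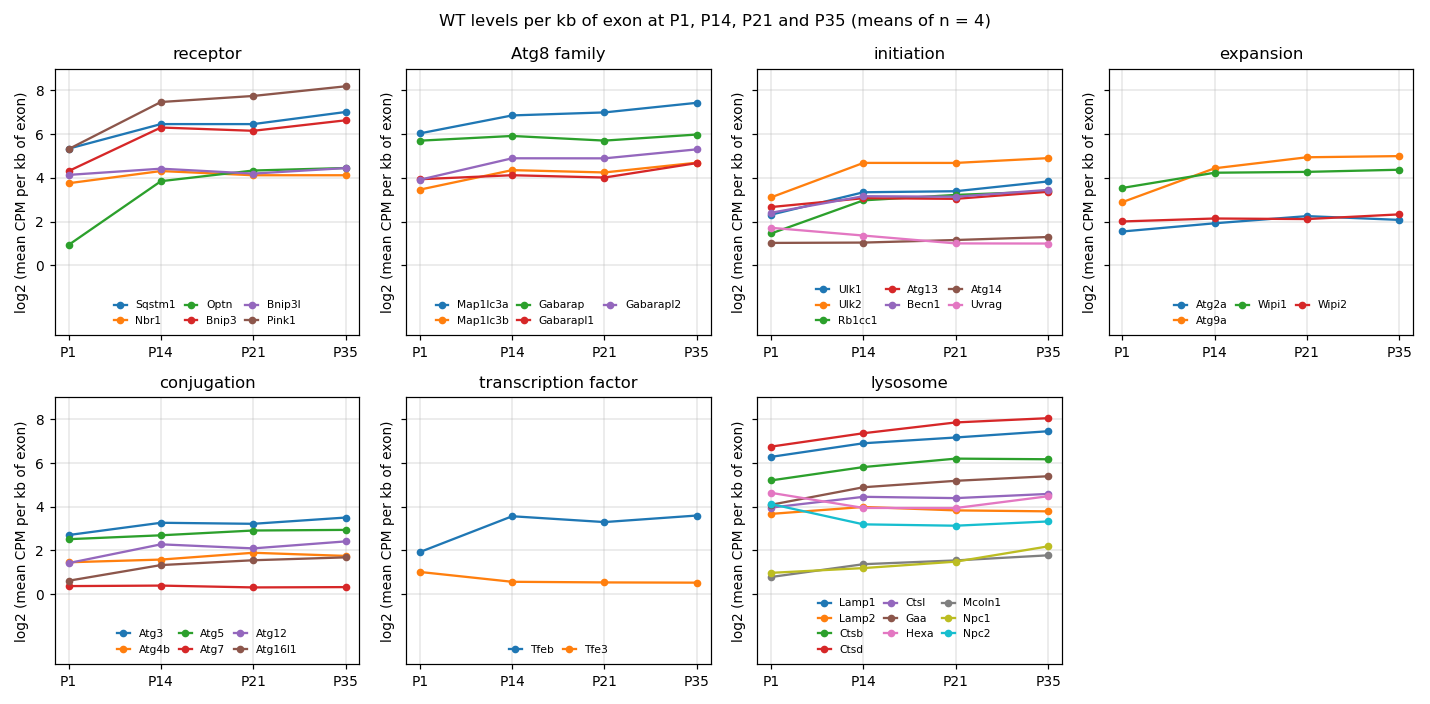
Mean level of each member in WT muscle, as log2 of CPM per kb of exon (y axis), at P1, P14, P21 and P35 (x axis, equally spaced), with 1 line per gene and 1 panel per role. *Optn*, *Pink1*, *Bnip3*, *Tfeb*, *Ulk2*, *Rb1cc1* and *Atg9a* rise between P1 and P14, *Npc2* and *Hexa* fall, and most lines are nearly flat afterwards; with scaling by library totals 22 of the 40 members take the other direction between P1 and P14.

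KO muscle differed from WT in these genes at P21, where 10 of 40 members were higher and 2 lower, and at P35, where 8 were higher and 10 lower. The counts use an adjusted *P*-value under 0.05 at any fold, over all genes tested at that age. At P1, 0 of 40 members were called, against 0.215% of genes called higher and 0.0276% lower (DEGs 0.0442%). At P14, 0 members were called, against 0.089% higher and 0.00636% lower (DEGs 0.0318%), although a fit with the replicate number as a block gave 4 calls, described below. At P21, 10 members were called higher and 2 lower, against 11.4% and 9.57% of all genes, and 3 were DEGs against 4.67%. At P35, 8 were called higher and 10 lower, against 21.4% and 20.1% of all genes, and 8 were DEGs against 16%. At P35 the members were thus called about as often as all genes in either direction, and at P21 more often higher and less often lower, a difference that was not tested. Because the members were chosen with earlier results of these data known, these shares describe the list only. The median log2 fold change of the members was 0.09, -0.02, 0.13 and -0.02 in order of age, beside 0.01, 0.00, 0.01 and 0.04 over all genes tested.

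The split between higher and lower depends on scaling. With library totals in place of TMM, the median of all genes moved to 0.20 at P21 and 0.44 at P35, and the members called became 28 higher and 0 lower at P21 (31.2% and 3.85% of all genes) and 26 higher and 4 lower at P35 (54.3% and 5.92%). Of the 40 members, 15 took the other sign at P35 and 16 at P14. Directions below are relative to TMM scaling, under which the median gene stayed within 0.04 of 0.

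**Figure D2:**
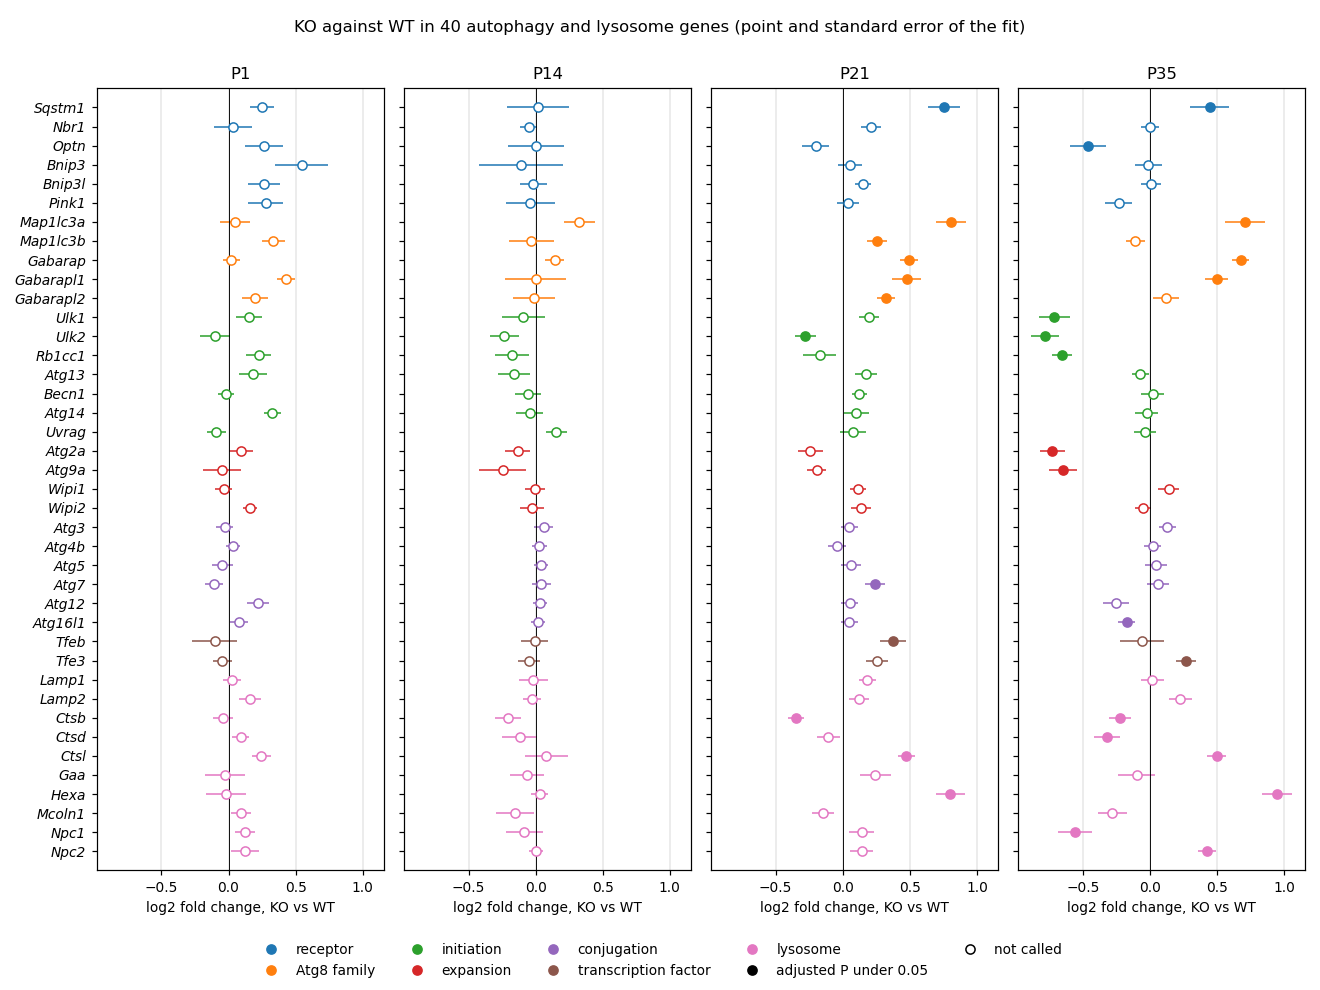
Log2 fold change of KO against WT (x axis) for each of the 40 members (rows, coloured by role) at the 4 ages, with an approximate standard error derived from the edgeR test (bars). Filled points have an adjusted *P*-value under 0.05. None is filled at P1 or P14, all 5 Atg8 genes are filled to the right at P21, and at P35 *Gabarap*, *Gabarapl1*, *Map1lc3a*, *Hexa*, *Ctsl* and *Npc2* lie to the right while *Ulk1*, *Ulk2*, *Rb1cc1*, *Atg2a* and *Atg9a* lie to the left; scaled by library totals, 15 of the 40 members change sign at P35, of the called ones *Ctsd*, *Ctsb* and *Atg16l1*.

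Promoter sequences were searched for CACGTG, carried by many genes that Tfeb and Tfe3 switch on, and for other short elements. RefSeq sequences of 250 bases before to 50 after the start (GRCm38.p6) matched 32 of the 40 members. *Atg12*, *Atg16l1*, *Becn1*, *Bnip3l*, *Ctsb*, *Map1lc3a*, *Npc1* and *Rb1cc1* had no entry. The letters CACGTG, which read the same on both strands, stood in the promoters of 10 of the 32 members (31.2%) and of 8.09% of 27025 genes. The longer CLEAR core TCACGTGA, which contains CACGTG, stood in 3 (9.4%; *Atg3*, *Ctsd* and *Mcoln1*) and in 1.12% of genes. The antioxidant response element TGACNNNGC, searched on both strands, stood in 5 (15.6%; *Atg13*, *Ctsd*, *Hexa*, *Map1lc3b* and *Ulk2*) and in 13.99% of genes, and the FoxO element GTAAACA in 0 of 32 and 4.05% of genes. The windows below show the copies in *Lamp1*, the member with the most, the CLEAR core of *Mcoln1* and *Atg3*, and the single CACGTG of *Ctsl*, called higher at P21 and P35, with 1 match each in capitals, in the direction of transcription.
*Lamp1*, chr8:13159080-13159125 (+): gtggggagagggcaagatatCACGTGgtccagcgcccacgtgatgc
*Lamp1*, chr8:13159113-13159158 (+): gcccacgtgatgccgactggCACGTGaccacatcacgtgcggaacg
*Mcoln1*, chr8:3500454-3500499 (+): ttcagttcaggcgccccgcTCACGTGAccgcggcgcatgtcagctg
*Atg3*, chr16:45158738-45158783 (+): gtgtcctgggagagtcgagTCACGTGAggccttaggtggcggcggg
*Ctsl*, chr13:64370731-64370770 (-): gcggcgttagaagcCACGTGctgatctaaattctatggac

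*Lamp1* held 4 copies of CACGTG within the window, of which the 2 printed runs together show all 4, and was not called in KO at any age. Of the 10 members with CACGTG, *Ctsl* was called higher at P21 and P35, *Atg7* higher at P21 and *Ctsd* lower at P35, and the other 7 were not called. The members called at P35 that hold a CLEAR core or an antioxidant response element were *Hexa* (higher), *Ulk2* (lower) and *Ctsd* (lower), printed in full below with every match in capitals. In *Hexa* and *Ulk2* the capitals are the antioxidant response element. In *Ctsd* they are, in order, CACGTG, the CLEAR core and the antioxidant response element on the forward and on the reverse strand. A match is a description of these letters and not a bound site.
*Hexa*, chr9:59539290-59539589 (+): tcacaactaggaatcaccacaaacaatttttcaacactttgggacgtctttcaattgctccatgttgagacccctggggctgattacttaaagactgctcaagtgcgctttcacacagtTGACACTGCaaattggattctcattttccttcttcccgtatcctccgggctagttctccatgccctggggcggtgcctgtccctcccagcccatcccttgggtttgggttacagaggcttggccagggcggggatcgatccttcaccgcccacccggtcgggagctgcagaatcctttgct
*Ulk2*, chr11:61855043-61855342 (-): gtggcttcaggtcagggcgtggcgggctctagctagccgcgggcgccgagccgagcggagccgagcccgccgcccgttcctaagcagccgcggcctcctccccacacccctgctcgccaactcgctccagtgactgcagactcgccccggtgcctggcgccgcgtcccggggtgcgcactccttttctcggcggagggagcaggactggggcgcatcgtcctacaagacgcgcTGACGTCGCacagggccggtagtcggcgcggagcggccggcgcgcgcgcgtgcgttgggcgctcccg
*Ctsd*, chr7:142387778-142388077 (-): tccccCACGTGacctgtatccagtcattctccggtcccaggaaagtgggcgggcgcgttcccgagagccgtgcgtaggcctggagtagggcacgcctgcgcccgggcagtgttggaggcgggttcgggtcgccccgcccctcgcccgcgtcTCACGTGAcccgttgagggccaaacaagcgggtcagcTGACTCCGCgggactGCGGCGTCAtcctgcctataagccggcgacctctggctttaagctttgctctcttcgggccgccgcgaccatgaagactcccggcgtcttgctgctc

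At P1 no member passed in edgeR, although 9 of the 40 had an unadjusted *P*-value under 0.05, all of them higher in KO. Of the 18100 genes tested, 1978 had an unadjusted *P*-value under 0.05. DESeq2 called 4 of these 9 higher and 0 members lower, where it called 1.3% of all genes higher and 0.917% lower. They were *Gabarapl1* (0.42 on the log2 scale, adjusted *P*=8.44e-06 in DESeq2), *Atg14* (0.32, 0.000846), *Map1lc3b* (0.32, 0.0228) and *Ctsl* (0.23, 0.0439), and edgeR gave adjusted *P*=0.0533, 0.0926, 0.202 and 0.254 for the same genes. *Gabarapl1* lay at 30.4, 29.7, 30.8 and 32.5 CPM in WT against 40.9, 37.0, 42.9 and 43.8 CPM in KO, without overlap. *Atg14*, which directs the lipid kinase to the growing membrane, lay at 8.29, 8.64, 8.72 and 9.52 CPM in WT against 11, 11, 10.7 and 11 CPM in KO, again without overlap. In edgeR 1 member was called when either the second or the fourth KO library was left out.

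At P14, 1 of the 40 members had an unadjusted *P*-value under 0.05 in edgeR, against 1072 of the 15728 genes tested. DESeq2 called 0 members, and 110 genes higher and 42 lower among all tested. At this age, same-numbered WT and KO libraries deviated together, as the fourth libraries show. With the replicate number in the fit as a block, 1 member was called higher and 3 lower, where 2.87% of all genes were called higher and 2.74% lower. The labels number the replicates but do not say that same-numbered libraries are paired. The blocked result is given because of the shared deviations seen in these same data. *Map1lc3a* was higher in KO (0.33 ± 0.05, adjusted *P*=0.00736 with the block). *Ulk2* (-0.24 ± 0.05, 0.0177), *Atg9a* (-0.25 ± 0.05, 0.0215) and *Ctsb* (-0.21 ± 0.04, 0.0234) were lower. *Ulk2* counted 142, 138, 169 and 166 CPM in WT libraries 1 to 4 and 112, 123, 139 and 149.9 CPM in the KO libraries of the same numbers, lower in KO at each of the 4 numbers. *Map1lc3a* counted 123, 120.3, 135 and 169 CPM in WT against 159, 169.7, 164 and 195 CPM in KO, higher in KO at each of the 4 numbers. All 4 genes had the same sign at P21, with *Map1lc3a*, *Ulk2* and *Ctsb* called there.

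Among the 6 genes of the receptor group, *Sqstm1* was called higher in KO at P21 and P35 and *Optn* lower at P35. *Sqstm1* encodes p62, which binds ubiquitin-tagged cargo and Atg8 proteins and is itself degraded by autophagy. At P1 it lay at 132, 146, 126 and 138 CPM in WT against 162, 155, 181 and 139.8 CPM in KO, groups that overlapped (log2 fold change 0.25 ± 0.09, adjusted *P*=0.362). At P14 WT libraries lay at 249.8, 229.5, 299 and 404 CPM and KO libraries at 224, 254, 298 and 424 CPM, again overlapping (0.02 ± 0.23, adjusted *P*=1). The fourth library was the highest in both genotypes at P14, and the spread within each was larger than any difference between them.

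At P21 *Sqstm1* lay at 294, 338, 237 and 313 CPM in WT against 545, 475, 409 and 548 CPM in KO. Every KO library was above every WT library, 1.69-fold on average (0.75 ± 0.12, adjusted *P*=0.00341). At P35 it lay at 499, 413, 364 and 457 CPM in WT against 495, 489.5, 624 and 715 CPM in KO (0.45 ± 0.15, adjusted *P*=0.0334). The groups then overlapped, since the highest WT library was above the first and second KO libraries, and the call was lost without WT library 2, 3 or 4 or KO library 3 or 4 (adjusted *P*=0.0603 to 0.0974). The KO effect on *Sqstm1* was not shown to differ between P21 and P14 (0.72 ± 0.25, adjusted *P*=0.158) or between P35 and P21 (-0.32 ± 0.24, adjusted *P*=0.53).

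*Optn* was lower in KO at P35, at 83.0, 89.3, 73.8 and 82.3 CPM in WT against 59.7, 69.7, 43.2 and 61.7 CPM in KO (-0.46 ± 0.14, adjusted *P*=0.0223), a call lost without the second WT library (adjusted *P*=0.0561). *Pink1* and the mitochondrial receptors *Bnip3* and *Bnip3l*, together with the ubiquitin receptor *Nbr1*, were called at neither P21 nor P35. Their log2 fold changes lay between 0.04 and 0.21 at P21 and between -0.23 and 0.01 at P35.

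The Atg8 family was the 1 role of which every member was called, at P21. Its products are small ubiquitin-like proteins that are attached to lipid on the autophagosome. All 5 genes were called higher at P21 with a median log2 fold change of 0.48, and 3 of 5 were called higher at P35 with a median of 0.50. Of all genes tested, 11.4% were called higher at P21 and 21.4% at P35, and no difference from these shares was tested. The *Map1lc3b* call at P21 did not hold with most single libraries left out. *Gabarap* lay at 90.6, 102, 90.2 and 102 CPM in WT against 127, 138, 131 and 139 CPM in KO at P21 (0.49 ± 0.07, adjusted *P*=0.00169). At P35 it lay at 119, 119, 115 and 113 CPM in WT against 177, 175, 196 and 185 CPM in KO, 1.60-fold higher (0.68 ± 0.07, adjusted *P*=0.000135). The replicates of *Gabarap* were tight at both ages, and the lowest KO library was well above the highest WT library.

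*Map1lc3a* encodes LC3A. At P21 its libraries lay at 167, 149, 130.0 and 156 CPM in WT against 261, 308, 215 and 260.3 CPM in KO (0.81 ± 0.11, adjusted *P*=0.00162). At P35 they lay at 232, 192, 191 and 200.4 CPM in WT against 271, 263, 406 and 374 CPM in KO (0.71 ± 0.15, adjusted *P*=0.00464). The KO libraries at P35 fell into a lower and a higher pair, both above all WT libraries. *Gabarapl1* was higher in KO at P21 (0.48 ± 0.11, adjusted *P*=0.0134) and at P35 (0.50 ± 0.08, adjusted *P*=0.00148), where WT libraries lay at 49.3, 46.1, 57.2 and 53.2 CPM and KO libraries at 71.1, 76.4, 69.9 and 68.1 CPM.

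*Gabarapl2* and *Map1lc3b* were called at P21 alone, the first with a log2 fold change of 0.32 (adjusted *P*=0.0108) and the second with 0.25 (adjusted *P*=0.0401), and the latter call was lost with any of 7 of the 8 libraries left out. At P35 their values were 0.12 (adjusted *P*=0.35) and -0.11 (adjusted *P*=0.233). A difference between the ages was not shown for either (adjusted *P*=0.536 and 0.214). Counts of these 2 genes were not whole numbers in 31 and 32 of the 32 libraries, so part of their reads was divided between genes, and their values are less certain than those of the other Atg8 genes.

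Part of the kinase complex that starts autophagy went the other way at P35. *Ulk1*, *Ulk2* and *Rb1cc1* were lower in KO as DEGs, as were 1172 of the 15595 genes tested. *Atg13*, the fourth member of that complex on the list, was not called (-0.07). *Ulk2*, whose promoter is printed above with its antioxidant response element, lay at 215, 164, 159 and 176 CPM in WT against 108, 95.7, 98.2 and 108 CPM in KO at P35, or 0.583 times the WT level (-0.78 ± 0.10, adjusted *P*=0.000511). At P21 it lay at 164, 145, 136 and 169 CPM in WT against 135, 117, 126 and 124 CPM in KO (-0.28 ± 0.08, adjusted *P*=0.0308), a call lost without WT library 1 or 4 or KO library 2, 3 or 4. The groups did not overlap at either age, though at P21 the highest KO and the lowest WT library nearly met.

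*Ulk1* lay at 107, 77.6, 93.0 and 93.3 CPM in WT against 64.7, 54.2, 49.6 and 53.8 CPM in KO at P35 (-0.71 ± 0.12, adjusted *P*=0.00125). At P21 its KO libraries had not been lower, at 65.5, 68.4, 67.7 and 70.3 CPM in WT against 86.4, 67.7, 74.4 and 80.7 CPM in KO (0.20 ± 0.07, adjusted *P*=0.0929). *Rb1cc1* lay at 167, 138, 155 and 152 CPM in WT against 98.7, 95.1, 94.4 and 93.9 CPM in KO at P35 (-0.66 ± 0.07, adjusted *P*=0.000242). The 4 KO libraries of *Rb1cc1* were within 5 CPM of each other and all below the lowest WT library. In the lipid kinase complexes, *Becn1*, *Atg14* and *Uvrag* were called at no age in edgeR, with log2 fold changes between -0.04 and 0.02 at P35.

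Among the 4 genes of membrane expansion, *Atg2a* and *Atg9a* were lower at P35 and the PI3P-binding genes *Wipi1* and *Wipi2* were not called (0.14 and -0.05). *Atg2a*, which moves lipid from the endoplasmic reticulum to the growing membrane, lay at 33.3, 28.9, 36.3 and 31.4 CPM in WT against 21.5, 19.0, 19.2 and 17.5 CPM in KO (-0.73 ± 0.09, adjusted *P*=0.000439). *Atg9a*, a membrane protein that scrambles lipid between the leaflets, lay at 225, 171, 174 and 165 CPM in WT against 120.4, 108, 118 and 114 CPM in KO (-0.65 ± 0.11, adjusted *P*=0.00127). The first WT library of *Atg9a* stood far above the other 3, and all 4 KO libraries were below all 4 WT libraries with or without it. Both genes had values in the same direction at P21 that did not pass (-0.24 ± 0.09, adjusted *P*=0.0919 and -0.20 ± 0.07, adjusted *P*=0.0818). *Atg9a* shares 1832 exon bases with the same-strand gene model *Gm29253*, and its counts were not whole in 31 of 32 libraries.

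**Figure D3:**
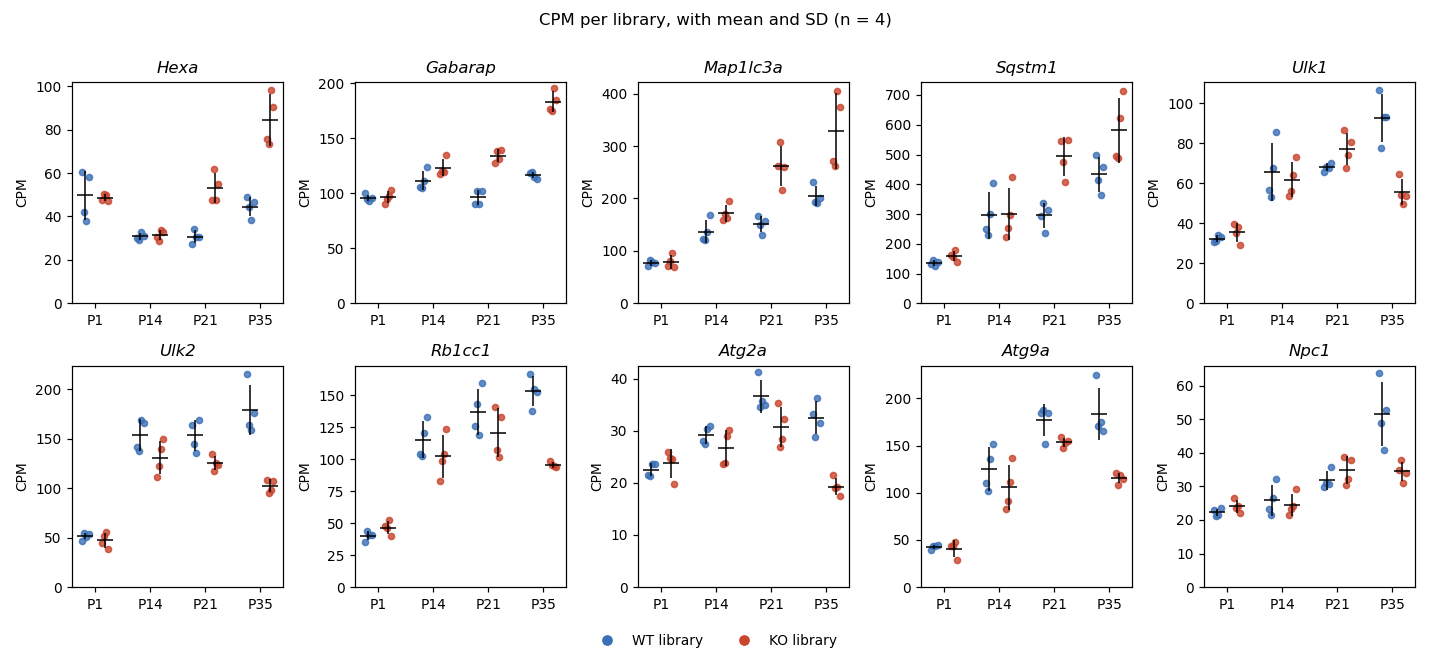
CPM (y axis, from 0) of 10 members in each library at P1, P14, P21 and P35 (x axis; blue, WT; red, KO), with mean and SD as black bars (n=4). *Hexa*, *Gabarap* and *Map1lc3a* are higher in every KO library at P21 and P35 and *Sqstm1* at P21, while *Ulk1*, *Ulk2*, *Rb1cc1*, *Atg2a*, *Atg9a* and *Npc1* are lower in every KO library at P35.

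Few of the 6 conjugation genes were called. At P21 *Atg7*, the activating enzyme of both conjugation systems, was called higher (0.24 ± 0.07, adjusted *P*=0.0444), a call lost with any library left out, and at P35 *Atg16l1*, the scaffold of the ligase, was called lower (-0.17 ± 0.06, adjusted *P*=0.048), a call lost with 6 of the 8 libraries. *Atg16l1* turned to 0.23 with library totals, under which the median gene moved to 0.44. The other conjugation genes ranged from -0.25 (*Atg12*) to 0.13 (*Atg3*) at P35 and none passed. *Tfeb* was called higher at P21, at 63.7, 56.3, 45.0 and 58.4 CPM in WT against 69.6, 72.0, 66.9 and 78.8 CPM in KO (0.38 ± 0.10, adjusted *P*=0.0235), a call lost without WT library 2 or KO library 2 or 4. At P35 its value was -0.06 ± 0.16, adjusted *P*=0.807, with the second KO library at 42.8 CPM and the other 3 at 71.3 to 74.3 CPM. *Tfe3* was called higher at P35 (0.27 ± 0.07, adjusted *P*=0.0165), which did not hold without the fourth KO library (adjusted *P*=0.0612), and at P21 its value was 0.25 ± 0.08, adjusted *P*=0.059.

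The lysosomal genes split. At P35, *Hexa*, *Ctsl* and *Npc2* were higher in KO, *Npc1*, *Ctsd* and *Ctsb* lower, and *Lamp1*, *Lamp2*, *Gaa* and *Mcoln1* were not called. *Hexa* had the largest rise of the 40 members at P35. Its promoter, also printed above, holds the same element and no CACGTG. Its libraries lay at 30.3, 29.1, 32.9 and 30.8 CPM in WT against 30.5, 28.9, 33.7 and 32.7 CPM in KO at P14, where the groups overlapped (0.03 ± 0.06, adjusted *P*=0.984). At P21 WT libraries lay at 27.1, 34.3, 30.6 and 30.7 CPM and KO libraries at 47.7, 61.9, 47.4 and 55.1 CPM, 1.74-fold higher (0.80 ± 0.11, adjusted *P*=0.00153). At P35 they lay at 49.0, 44.2, 38.6 and 46.7 CPM and 75.6, 73.6, 98.4 and 90.4 CPM, 1.93-fold higher (0.95 ± 0.11, adjusted *P*=0.000305). The groups were clear of each other at both later ages, and the KO level at P35 was above even the P1 level, from which WT muscle had come down.

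*Ctsl* (cathepsin L) lay at 161, 156, 153 and 154 CPM in WT against 198, 220.2, 232 and 217 CPM in KO at P35 (0.50 ± 0.07, adjusted *P*=0.000635), after a rise at P21 (0.47 ± 0.07, adjusted *P*=0.00171). *Npc2* lay at 56.1, 54.1, 52.8 and 55.5 CPM in WT against 72.5, 76.1, 74.4 and 65.5 CPM in KO at P35 (0.43 ± 0.07, adjusted *P*=0.00132) and was not called at P21 (0.14). Its partner in cholesterol export, *Npc1*, went the other way, at 63.8, 49.0, 40.8 and 52.6 CPM in WT against 34.9, 37.8, 31.1 and 34.0 CPM in KO at P35 (-0.56 ± 0.13, adjusted *P*=0.00757), while at P21 its value was 0.14 ± 0.09, adjusted *P*=0.31. The WT libraries of *Npc1* were spread from 40.8 to 63.8 CPM and all lay above the KO libraries.

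*Ctsb* (cathepsin B) was lower in KO at P21, at 453, 465, 431 and 433 CPM in WT against 337, 346, 335 and 372 CPM in KO (-0.35 ± 0.06, adjusted *P*=0.00525), and at P35 (-0.22 ± 0.08, adjusted *P*=0.0472), where the call was lost with 7 of the 8 libraries. *Ctsd*, the member with the CLEAR core in its printed promoter, was lower at P35, at 662, 625, 558 and 652 CPM in WT against 433, 470.3, 532 and 534 CPM in KO (-0.32 ± 0.10, adjusted *P*=0.0259), a call lost with 5 of the 8 libraries. With library totals both took the other sign at P35 (0.18 and 0.09), still below the median gene at 0.44. *Gaa*, whose product breaks down glycogen, had values of 0.24 ± 0.12, adjusted *P*=0.175 at P21 and -0.10 ± 0.14, adjusted *P*=0.602 at P35.

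Most macrophage markers were higher in KO at P21 and P35, ages at which the lysosomal members went in both directions. Of 10 markers, 7 were called higher and 0 lower at P21, and 8 higher and 1 lower at P35. Their median log2 fold change was 0.54 at P21 and 0.78 at P35, with lowest values of -0.15 and -0.34. *Cd68* had the highest values, 1.23 ± 0.22, adjusted *P*=0.00522 at P21 and 1.70 ± 0.20, adjusted *P*=0.000286 at P35. Their summed level was 118 to 141 CPM in WT against 154 to 192 CPM in KO at P21, and 117 to 149 CPM in WT against 153 to 226 CPM in KO at P35. No marker had a mean of 0 in any of these groups. At P14 the sums overlapped (136 to 143 CPM in WT against 114 to 152 CPM in KO) and 0 of the 10 were called. Endothelial markers were lower in KO (4 of 5 called at P21 and at P35), and at P35 all 3 adipocyte markers were higher and 5 of 10 muscle fibre markers lower with 2 higher. Of 6 fibroblast markers, 1 was called higher and 0 lower at P21 and again at P35. The part of these cell types in the changes of *Hexa*, *Ctsl* and *Npc2*, or of any other member, was not tested.

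Whether the KO effect changed with age was tested directly, as an interaction in 1 fit of all 32 libraries. From P14 to P21 it differed for *Hexa* (0.76 ± 0.17, adjusted *P*=0.0193), where 1.42% of all genes differed. That call was lost without WT library 1 or KO library 2 of P21. From P21 to P35 it differed for *Ulk1* (-0.92 ± 0.18, adjusted *P*=0.00532) and *Npc1* (-0.71 ± 0.17, adjusted *P*=0.0229), where 2.18% of all genes differed, both with a value above 0 at P21 that was not called and a value below 0 at P35 that was. The *Npc1* call was lost without KO library 1 of P21, WT library 1 of P35 or KO library 3 of P35.

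Between P14 and P35, 9 members differed, against 17.7% of all genes. *Hexa* (0.89 ± 0.17, adjusted *P*=0.000597), *Gabarap* (0.51 ± 0.09, adjusted *P*=0.000257) and *Npc2* (0.40 ± 0.11, adjusted *P*=0.0138) had moved up. *Ulk1* (-0.65 ± 0.18, adjusted *P*=0.0114), *Atg2a* (-0.62 ± 0.14, adjusted *P*=0.00277) and *Ulk2* (-0.57 ± 0.16, adjusted *P*=0.0111) had moved down. *Rb1cc1*, *Npc1* and *Atg16l1* had moved down by less certain amounts (-0.51, -0.50 and -0.22 on the log2 scale), with calls that were lost on leaving out 7, 10 and 10 of the 16 libraries. These comparisons share libraries with the comparisons of KO against WT given above.

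Genes of the same pathway outside the 40 were taken from 6 lists, of which 102 genes were tested at each age. At P21, 21 were called higher and 13 lower, and at P35, 28 higher and 17 lower, with medians of 0.08 and 0.05 on the log2 scale. Of all genes tested, 11.4% were called higher and 9.57% lower at P21, and 21.4% and 20.1% at P35, with medians of 0.01 and 0.04. These shares apply to each list below, and no difference from them was tested. At P14, 0 were called, and at P1 the ER-phagy receptor *Retreg1* (0.69 ± 0.10, adjusted *P*=0.0369) and the PI3P-binding gene *Wdr45* (0.40 ± 0.06, adjusted *P*=0.0416) were called higher. The shares of all genes called higher and lower were 0.215% and 0.0276% at P1 and 0.089% and 0.00636% at P14. The V-ATPase, the proton pump that acidifies the lysosome, was the list most often higher, with 8 of 16 genes higher and 3 lower at P21 and 8 higher and 2 lower at P35. *Atp6ap2*, an accessory subunit, averaged 22.5 ± 1.25 CPM (SD) in WT but 44.2 ± 6.35 CPM in KO at P35 (1.00 ± 0.11, adjusted *P*=0.000188). *Atp6v1h*, a subunit of the catalytic part, was also higher (0.69 ± 0.07, adjusted *P*=0.00015), whereas *Atp6v0a2*, an isoform of the membrane part, was lower (-0.51 ± 0.06, adjusted *P*=0.000348). At P21 *Atp6ap2*, *Atp6v1a* and *Atp6v1h* had the smallest adjusted *P*-values, with log2 fold changes of 0.49, 0.47 and 0.37.

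Of 31 lysosomal hydrolases and activators, 5 were called higher and 2 lower at P21, and 10 higher and 3 lower at P35. Over all genes the shares called higher and lower were 11.4% and 9.57% at P21 and 21.4% and 20.1% at P35. The protease *Lgmn* averaged 45.4 ± 2.83 CPM (SD) in WT but 122 ± 28.5 CPM in KO at P35 (1.45 ± 0.15, adjusted *P*=0.000175) and was higher at P21 (0.93). *Ctss* (cathepsin S), a protease abundant in macrophages, averaged 4.80 ± 0.252 CPM (SD) in WT but 13 ± 3.07 CPM in KO (1.46 ± 0.17, adjusted *P*=0.00027) and was higher at P21 (0.95), as was *Ctsz* (0.41). *Smpd1*, the acid sphingomyelinase, was lower at P35 (-0.60 ± 0.06, adjusted *P*=0.000156). Of 11 lysosomal membrane genes tested, 1 was higher and 3 lower at P21 and 2 higher and 3 lower at P35. The tetraspanin *Cd63* averaged 124 ± 17.5 CPM (SD) in WT but 295 ± 40.2 CPM in KO at P35 (1.27 ± 0.13, adjusted *P*=0.000153), and *Ostm1* (-0.78 ± 0.11, adjusted *P*=0.000575) and *Mfsd8* (-0.64 ± 0.09, adjusted *P*=0.00067) were lower. The same 3 genes led this list at P21 (0.77, -0.61 and -0.35). The macrophage markers given above rose at the same ages, and their part in these values was not tested.

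In the list of other autophagy machinery, 4 of 21 genes were higher and 2 lower at P21, and 5 higher and 6 lower at P35. Beside these counts, 11.4% of all genes were called higher and 9.57% lower at P21, and 21.4% and 20.1% at P35. *Epg5*, a tether of autophagosomes to lysosomes, was lower at P35 (-0.75 ± 0.09, adjusted *P*=0.000323), as were *Vmp1*, which works at the start of the autophagosome (-0.60 ± 0.07, adjusted *P*=0.000239), and *Stx17*, the SNARE that fuses it with the lysosome (-0.55 ± 0.07, adjusted *P*=0.000441). At P21 the smallest adjusted *P*-values were those of *Nrbf2* (0.55 ± 0.10, adjusted *P*=0.00662), *Tmem41b* (0.33 ± 0.07, adjusted *P*=0.00772) and *Wdr45* (0.52 ± 0.13, adjusted *P*=0.0227), all higher. Of 11 nutrient signalling genes, 2 were higher and 2 lower at P21 and 2 higher and 1 lower at P35. *Mitf*, a relative of *Tfeb*, was lower at both ages (-0.58 ± 0.10, adjusted *P*=0.00464, then -0.77 ± 0.10, adjusted *P*=0.000453), *Rragb* was lower at P21 (-0.65), *Lamtor1* was higher at both (0.25 and 0.27) and *Lamtor2* higher at P35 (0.42). Of 12 other receptors, 1 was higher and 1 lower at P21 (*Calcoco1*, 0.28; *Ncoa4*, -0.32), and at P35 *Retreg1* was higher (0.47) and *Bcl2l13* and *Fundc1* lower (-0.27 and -0.30).

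**Figure D4:**
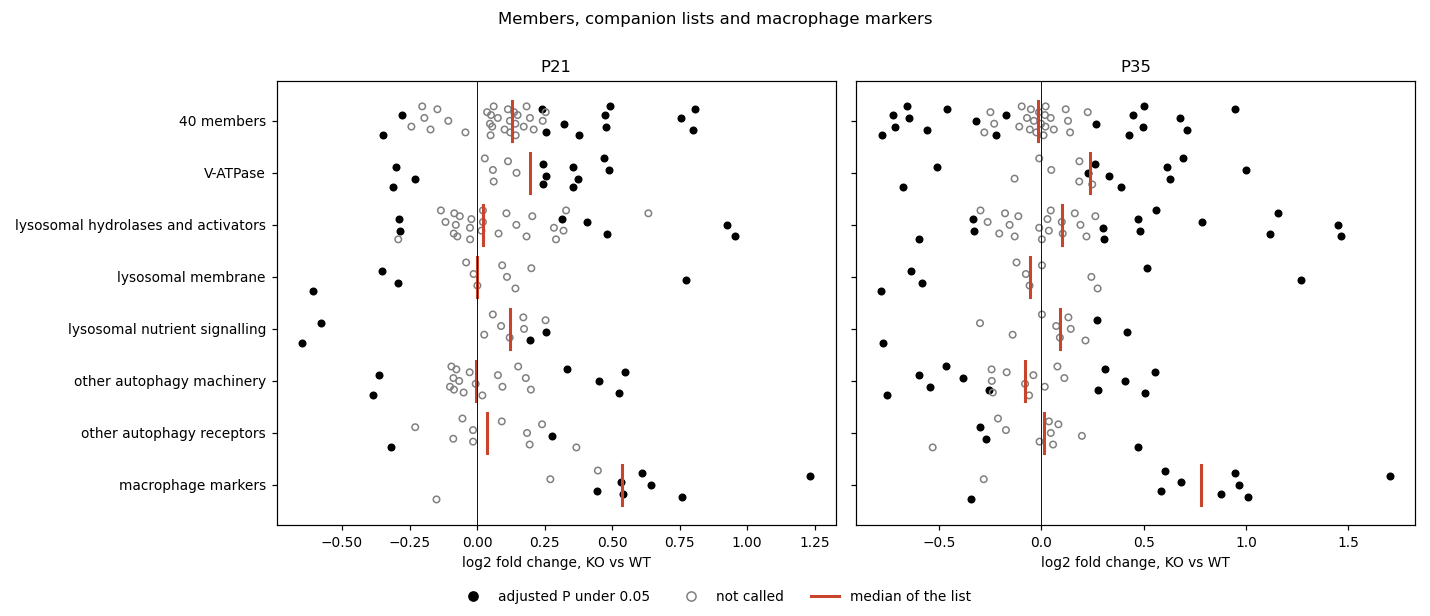
Log2 fold change of KO against WT (x axis) at P21 and P35 for the 40 members, the 6 lists of other pathway genes and the macrophage markers (rows), with 1 point per gene (filled, adjusted *P*-value under 0.05) and the list median in red. Every list has filled points on both sides except the macrophage markers at P21, whose 7 called genes all lie to the right; the V-ATPase medians are 0.19 and 0.24.

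Log2 fold changes of KO against WT stepped down with gene length across the whole table. Split into 5 equal groups by exon length, the genes tested at P35 had median log2 fold changes of 0.18, 0.13, 0.06, -0.02 and -0.11 from the shortest to the longest group. At P21 the medians ran from 0.08 to -0.08. The 4 members in the shortest group, *Gabarap*, *Hexa*, *Map1lc3a* and *Gabarapl1*, had a median of 0.69 at P35. *Ulk1*, *Ulk2* and *Atg9a* lay in the fourth group, and *Rb1cc1* (14690 exon bases), *Npc1* (11317) and *Atg2a* (7693) in the longest, whose 12 members had a median of -0.14. The part of length in the members' values was not tested.

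**Figure D5:**
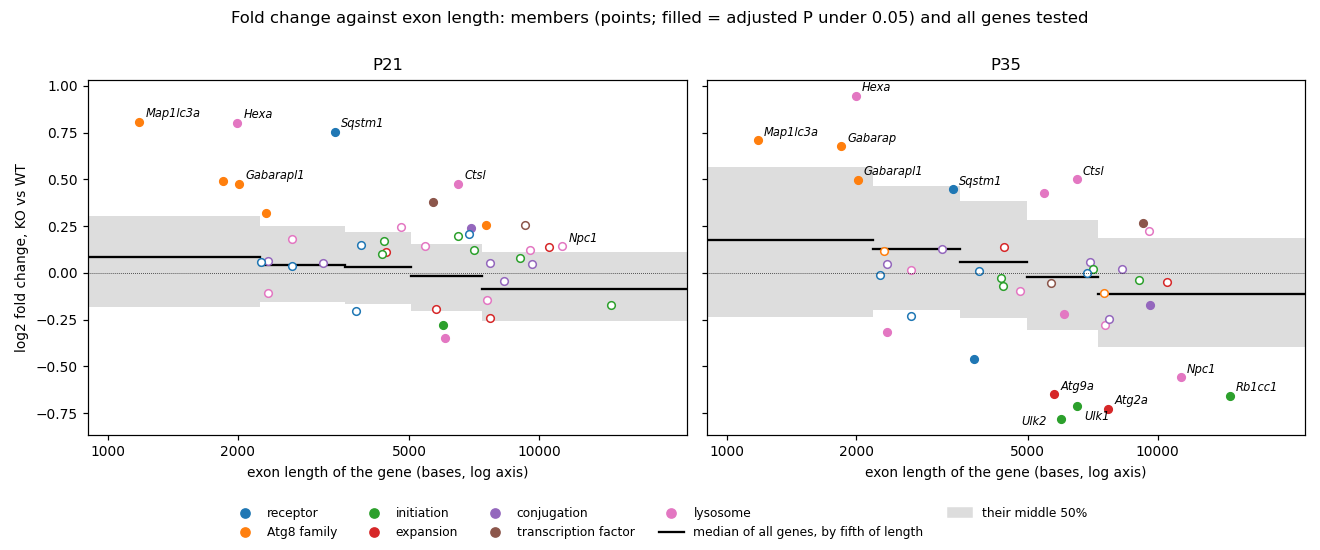
Log2 fold change of KO against WT (y axis) against exon length (x axis, log scale, with very short and very long genes outside the range drawn) for the 40 members at P21 and P35, coloured by role and filled where the adjusted *P*-value was under 0.05. Black lines are medians of all genes tested in 5 groups by length and grey bands their interquartile ranges. At P35 the medians step down from 0.18 to -0.11, *Hexa* lies highest at 0.95 and *Ulk2* lowest at -0.78.

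Reads of some members can be confused with those of other genes. Counts were not whole in 31 or 32 of the 32 libraries for *Bnip3*, *Bnip3l*, *Map1lc3b*, *Gabarapl2* and *Atg9a*, in 5 for *Ctsd* and in 2 for *Ctsl*. Exons overlap a gene on the opposite strand in *Hexa* (255 bases, *Tmem202*), *Sqstm1* (580, *Mrnip*), *Gabarapl1* (570, *1700101I11Rik*), *Ctsl* (1742, *Gm47123*), *Ctsb* (774, *Fdft1*), *Rb1cc1* (558, *4732440D04Rik*) and *Npc1* (511, *Rmc1*), among others. The libraries kept the strand, but the strand setting of the counting is not given in the sources used here, so reads of these pairs may not have been told apart. In the GRCm38 annotation (GENCODE M21), *Hexa* (ENSMUSG00000025232) lies at chr9:59539540-59565109 (+, 14 exon blocks), *Sqstm1* (ENSMUSG00000015837) at chr11:50199366-50210827 (-, 8) and *Gabarap* (ENSMUSG00000018567) at chr11:69991143-69994951 (+, 4). *Map1lc3a* (ENSMUSG00000027602) lies at chr2:155276297-155278073 (+, 4), *Ulk1* (ENSMUSG00000029512) at chr5:110784488-110810097 (-, 27) and *Ulk2* (ENSMUSG00000004798) at chr11:61775649-61855073 (-, 27). *Rb1cc1* (ENSMUSG00000025907) lies at chr1:6206197-6276648 (+, 27), *Atg2a* (ENSMUSG00000024773) at chr19:6241668-6262335 (+, 39) and *Atg9a* (ENSMUSG00000033124) at chr1:75180860-75192196 (-, 15). All values are sums over the exons of a gene and do not separate its transcripts.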

How the data were processed

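RNA of 32 TA muscle libraries (8 groups of 4) was sequenced from poly(A)-selected, strand-keeping libraries. The authors deposited 1 table of expected counts per gene, of which 4.26% of values were not whole. The submitters' processing notes name STAR 2.6.1, RSEM 1.2.22 and DESeq2, whereas HTSeq is the counter named in the methods. The annotation release and strand setting are not given in the sources used here. Counts were rounded to whole numbers. Genes were kept by filterByExpr and fitted with edgeR 4.0.16 (R 4.3.3; TMM, glmQLFit, glmQLFTest), separately at each age for KO against WT and for each WT age step, and in 1 fit of all libraries for differences of the KO effect between ages. Adjusted *P*-values (Benjamini-Hochberg) are over all genes tested. Errors beside log2 fold changes are approximate standard errors, the absolute log2 fold change divided by the square root of the F statistic of the edgeR test. A gene was called at adjusted *P*-value under 0.05, and a DEG had adjusted *P*-value under 0.01 and a log2 fold change beyond 0.585. CPM used TMM over all 32 libraries. Exon lengths came from GENCODE M21, with the exons of all transcripts of a gene merged.

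The members and lists were chosen with earlier results of these data known. Library values are given for members that were DEGs of KO against WT, for *Sqstm1* and for members that stood nearest a call at P1 and P14. For WT steps the 3 highest and 3 lowest DEGs were named, and for each list the 3 genes of lowest adjusted *P*-value, and others were added after their values were seen. Same-numbered WT and KO libraries, which the labels do not describe as paired, were checked for shared deviations from their group means. The correlations ran from 0.19 to 0.59 at P14, where every pair was above 0.1 and the blocked result is given, from -0.32 to -0.00 at P1, -0.01 to 0.19 at P21 and -0.08 to 0.17 at P35. Alternatives were DESeq2 1.42.0, size factors, library totals, no filter or at least 10 counts in every library, the replicate block, adjusted deviances, other sample sets and leaving out each library. The scripts were tested on simulated data.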

Additional observations from a re-analysis of the deposited data

Results flagged for a closer look

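One library stood far from the other 3 of its group. The first WT library at P35 held 225 CPM of *Atg9a* against 165 to 174 CPM in the other 3. Over 28 groups of 4 libraries looked at, chance flags about 1 group in 20, but these groups share libraries and are not independent. The same WT library was also the highest of the 4 for *Ulk1*, *Ulk2*, *Rb1cc1* and *Npc1*, though not for *Atg2a*. *Atg9a* and each of these genes were called lower in KO at P35 with every library left out in turn.

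The KO effect differed between ages, by the test of the difference itself, in 12 cases. Of all genes tested, 1.42% differed from P14 to P21, 2.18% from P21 to P35 and 17.7% from P14 to P35. On the log2 scale and with the later age minus the earlier, it differed by 0.76 for *Hexa* between P14 and P21, and by -0.92 for *Ulk1* and -0.71 for *Npc1* between P21 and P35. Between P14 and P35 it differed by 0.89 for *Hexa*, 0.51 for *Gabarap* and 0.40 for *Npc2*. It moved the other way for *Ulk1* (-0.65), *Atg2a* (-0.62), *Ulk2* (-0.57), *Rb1cc1* (-0.51), *Npc1* (-0.50) and *Atg16l1* (-0.22). The calls of *Hexa* between P14 and P21, both calls of *Npc1*, and those of *Rb1cc1* and *Atg16l1* were lost on leaving out some single libraries.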

How the results depend on the processing

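Scaling by library totals changed most. Members called became 28 at P21 and 30 at P35, DEGs among the members became 0 for the WT step from P21 to P35, and a different KO effect was called for 7 (P21 against P14) and 21 (P35 against P14). *Ctsd* (0.087), *Ctsb* (0.18) and *Atg16l1* (0.23) changed sign among the members called at P35 (15 of all 40 members did), as did *Atg16l1* in the difference between P35 and P14 (0.13). The cause was not tested. The stricter DEG rule left 3 members at P21 and 8 at P35. DESeq2 called 4 members at P1, and 2 (P21 against P14) and 4 (P35 against P21) with a different KO effect. With the replicate number as a block, 4 members were called at P14, 0 DEGs remained for the WT step from P21 to P35, and 3 (P21 against P14) and 5 (P35 against P21) had a different KO effect. It gave 10 higher and 4 lower at P21 against 10 and 2 without it, and 7 and 8 at P35. For the WT step from P14 to P21 the calls at 0.05 went from 6 higher and 3 lower to 0 and 1, with 0 DEGs either way. At P21, size factors gave 8 members higher and 2 lower, and 1 fit of all 32 libraries gave 8 and 1. With only the 16 libraries of P21 and P35, a different KO effect between these ages was called for 1 member. Leaving out each library in turn gave, for KO against WT in order of age, 0 to 1, 0, 8 to 11 and 14 to 17 members called, and for DEGs of the WT steps 19 to 23, 0 to 3 (3 without the fourth WT library of P14) and 0 to 1. A different KO effect was called for 0 to 4 members (P21 against P14, 4 without the fourth KO library of P14 and 0 without the first WT or second KO library of P21), 1 to 3 (P35 against P21) and 6 to 10 (P35 against P14). *Sqstm1* at P14 ran from -0.20 to 0.20 and was not called.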
